A study of Mus musculus with 10 samples.

Results

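Mesothelial cells, the flat epithelium that covers the pancreas and lines the body cavity around it, made up 3608 of the 57982 cells of the embryonic mouse pancreas examined here. They were chosen by their transcripts. A cell with at least 200 genes was taken as mesothelial when it held at least 2 unique molecular identifiers (UMIs, each standing for 1 captured transcript) of *Upk3b*, at least 1 UMI in 2 or more of *Krt19*, *Krt7*, *Lrrn4*, *Wt1* and *Slc9a3r1*, and none of *Epcam*. They were described against 12717 other mesenchymal cells, which held at least 5 UMIs of the collagen genes *Col3a1* and *Col1a1* together and did not pass that gate.

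The data were droplet-based single-cell RNA-seq of 8 libraries. Of these, 7 came from Swiss Webster pancreas, covering E12.5, E14.5 (batches 1 and 2) and E17.5 with the version 1 (v1) kit, and E12.5, E14.5 and E17.5 with the version 2 (v2) kit, where the E17.5 v2 suspension was run in 2 wells that were summed. In the 3 Swiss Webster v2 libraries, CD140a+ cells, which carry the mesenchymal receptor PDGFRA, had been depleted by sorting, so kit, sequencer and depletion cannot be told apart. The eighth library, at E14.5 with the v2 kit, came from Fev-Cre;ROSA26mTmG embryos, in which Cre driven by *Fev*, a transcription factor gene of endocrine progenitors and neurons, turns membrane tdTomato into membrane GFP, and was sorted for GFP+ and for tdTomato+ cells. Each library pooled the pancreata of several embryos, so a library was the unit of replication and differences between embryos were not measured. For mesothelial cells against other mesenchyme, paired by library, the p-values below measure how their difference varied from library to library. For stages they measure the spread between libraries left after stage and kit. Only the E14.5 v1 batches share both, so that spread includes disagreement between kits.

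The mesothelium forms early from the lining of the coelomic cavity. Like an epithelium it has keratins, tight junctions and an apical surface facing fluid, and yet it keeps mesenchymal transcription factors such as WT1 and gives rise to fibroblasts and smooth muscle in several organs. In the embryo it is also a source of secreted signals, including fibroblast growth factors and retinoic acid, for the tissue below it.

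The gate genes were *Upk3b* (uroplakin 3B, chr5:136038496-136046487 on mm10), the keratin genes *Krt19* (chr11:100140810-100148665) and *Krt7* (chr15:101411043-101430313), *Lrrn4* (chr2:132868305-132880891), which encodes a leucine-rich repeat membrane protein, *Wt1* (chr2:105126529-105173616) and *Slc9a3r1* (chr11:115163341-115181181), whose product links ezrin to membrane proteins. All are protein-coding. Their values chose the cells and are given as a description. The median number of *Upk3b* UMIs per member was 3 in both E12.5 libraries, 4 in the 3 Swiss Webster E14.5 libraries, 5 in Fev-Cre, 8 in E17.5 v1 and 20 in E17.5 v2. All 5 accessory genes were found together in 2.68% of members in E12.5 v1 and 12.7% in E12.5 v2, against 29.7% in E17.5 v1 and 73.1% in E17.5 v2. Since a deeper cell meets the *Upk3b* and accessory criteria more readily and the *Epcam* criterion less readily, the depth matters here. Median UMIs per member ran from 3769 in E17.5 v1 to 10725.5 in E17.5 v2, and from 2527 to 11041 in other mesenchyme.

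The cells just outside the gate were set beside the members just inside it. With every other criterion met, 874 cells held 1 *Upk3b* UMI and 737 members held 2. *Cav1*, which was not part of the gate, stood at 407 and 423 CPM (UMIs of a gene per 1000000 UMIs) in these sets and the acinar gene *Cpa1* at 103 and 55.9 CPM, and *Cav1* at 781 CPM in the 2871 members with 3 or more. Of cells that met all but the accessory criterion 110 had 1 accessory gene, with *Cav1* at 290 CPM, and 382 members had 2, with 303 CPM. The *Epcam* criterion cut elsewhere. The 810 cells with a single *Epcam* UMI held *Cav1* at 810 CPM, *Ins2* at 482 CPM and *Cpa1* at 92.4 CPM, against 722, 321 and 59.7 CPM in all members, while 927 cells with 2 or more held *Ins2* at 8033 CPM and *Cpa1* at 1058 CPM.

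This matters for the comparison set. An *Epcam* UMI was found in 7.36% to 82.7% of all cells of a library, and other mesenchyme of the depleted libraries included many cells that met the gate but for *Epcam*. Such cells were 0.279% to 1.75% of other mesenchyme in the 4 v1 libraries and 5.70% in Fev-Cre, but 14.9% in E12.5 v2, 26.1% in E14.5 v2 and 62.3% in E17.5 v2. An *Epcam* UMI was found in 2.67% to 67.8% of other mesenchyme and by rule in no member, so the gate itself could make genes of epithelial cells lower in members. The fit was therefore repeated against other mesenchyme with no *Upk3b* UMI (the *Upk3b*-free set, defined after the values had been seen) and against other mesenchyme with no *Epcam* UMI (the *Epcam*-free set). The members stayed the same in both. Because *Upk3b* also chose the members, larger folds against the *Upk3b*-free set follow in part from that selection. They are given as a description and not as a second, independent test. Of the 466 genes called higher in members, 433 could be tested against the *Upk3b*-free set and 430 were called higher again, with the median log2 fold going from 1.47 to 2.08, and of the 568 called lower 542 of 558 were called again. Against the *Epcam*-free set 415 of 431 were called higher again but 391 of 472 lower, and 14 of these 472 changed sign. *Upk3b* was found in 0.287% to 7.11% of cells with 2 or more *Epcam* UMIs and fewer than 5 of the collagen genes. Those of them with no *Upk3b* UMI are called epithelial cells below. Between libraries of the same kit, 19 to 35 (v1) and 107 to 277 (v2) cell barcodes were shared per pair, and none were shared across kits.

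Mesothelial cells were a minority of every library. They made up 2.43% of cells in E12.5 v1 (95% exact binomial interval 2.00% to 2.91%), 2.44% in E14.5 v1 batch 1 (1.96% to 3.0%), 7.17% in E14.5 v1 batch 2 (6.44% to 7.96%) and 1.60% in E17.5 v1 (1.13% to 2.20%). In the v2 libraries the shares were 10.4% at E12.5 (9.91% to 11%), 4.41% at E14.5 (4.0% to 4.86%), 4.04% in Fev-Cre (3.62% to 4.50%) and 7.44% at E17.5 (6.99% to 7.91%). These intervals cover counting error only. The batches of E14.5 v1 lay further apart than any v1 stage lay from batch 1, whereas the wells of E17.5 v2 gave 7.29% and 7.59%, so the shares differed more between suspensions than between wells and no stage order was read from them. They also moved with the gate. Applied to cells thinned to 2000 UMIs it gave 0.706% in E12.5 v1, 2.26% in E12.5 v2 and 8.25% in E17.5 v2. Leaving out cells with markers of 5 other types gave 24.4% in E12.5 v2 and 38.1% in E14.5 v2. That step also cut the total, to 10898 of 57982 cells, so these shares have another denominator. Of members and other mesenchyme together, members were 3.14% to 9.91% in v1, 11.1% in Fev-Cre and 45.6% to 53.3% in the depleted libraries. The sum of *Col3a1* and *Col1a1* reached 5 UMIs in 29.9% of members in E12.5 v2 and in 99.9% in E17.5 v2.

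**Figure D1:**
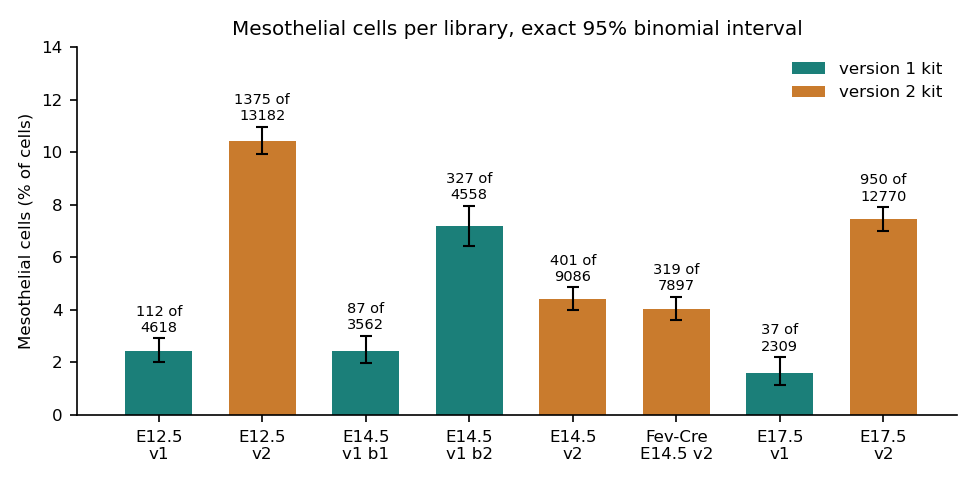
Share of mesothelial cells in each library as a percent of cells with at least 200 genes (bars, v1 green and v2 orange) with exact 95% binomial intervals, and the number of cells above each bar. The highest share is 10.4% in E12.5 v2 and the lowest 1.60% in E17.5 v1, and the E14.5 v1 batches sit at 2.44% and 7.17%.

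The label was set beside mesothelial markers that the gate had not used. The list was chosen with earlier results of these data known. The study names *Cav1*, *Rspo1*, *Dmkn* and *Msln* of this list for mesothelial cells from the same data. It is therefore no independent check of the label. Of 13 that could be tested, 11 were higher in members than in other mesenchyme by edgeR's quasi-likelihood test with library as a block (at least 2-fold, Benjamini-Hochberg adjusted p below 0.05), none was lower, and the median log2 fold was 2.50 against -0.05 over all 11331 genes. Over all genes 4.11% were called higher (466) and 5.01% lower (568). The summed level of the list was 1754 to 7239 CPM in members and 146 to 4257 CPM in other mesenchyme. *Krt8* and *Krt18* were the other two, with log2 folds of 0.09 and 0.90 (adjusted p = 0.96 and 0.27). Against the *Upk3b*-free set 687 genes (6.11%) were higher and 687 (6.11%) lower of 11240, the marker count was again 11 of 13, and the median log2 fold was 3.77. Against the *Epcam*-free set 728 genes (6.66%) were higher and 563 (5.15%) lower of 10939, and all 13 markers were higher, *Krt8* and *Krt18* with log2 folds of 2.18 and 2.68 (adjusted p = 0.0036 and 0.00031). *Msln* was too low in the earlier libraries to enter this test. Unthinned, it was found in at most 3.67% of members of any library at E12.5 and E14.5. At E17.5 it was found in 56.8% (v1) and 82.4% (v2) of members, against 0.964% and 53.6% of other mesenchyme. Its log2 change in members from E12.5 to E17.5 was 9.44 ± 0.51.

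Genes of the cell surface led the markers. *Cav1*, the main coat protein of caveolae (chr6:17306335-17341452), stood at 448 CPM in members of E12.5 v1, 316 in E12.5 v2, 653, 797 and 513 in the E14.5 libraries, 552 in Fev-Cre, 1494 in E17.5 v1 and 1166 in E17.5 v2. Other mesenchyme held 24.4 to 192 CPM in 7 libraries and 760 CPM in E17.5 v2. Members were higher in all 8 libraries, by 2.63 ± 0.43 on the log2 scale (SE, adjusted p = 0.0012), and by 3.77 against the *Upk3b*-free set. *Bcam*, which encodes a laminin receptor, varied little between libraries, at 197 to 393 CPM in members and 16.7 to 243 CPM in other mesenchyme, and its log2 fold was 2.50 ± 0.37 (adjusted p = 0.00068), or 3.40 against the *Upk3b*-free set. The uroplakin partner gene *Upk1b* was at 111 to 421 CPM in members and 3.06 to 163 CPM in other mesenchyme (log2 fold 3.11 ± 0.51, or 5.22 against the *Upk3b*-free set). *Gpm6a*, which encodes a neuronal-type membrane glycoprotein, and *Tm4sf5*, a tetraspanin-like gene, followed with log2 folds of 3.03 ± 0.50 and 2.98 ± 0.49, or 4.87 and 4.90 against the *Upk3b*-free set.

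Genes of epithelial structures were next. Of 36 genes of tight junctions and the apical membrane, 16 were higher and 7 lower. Among the higher were *Cldn15*, a pore-forming claudin, *Crb2*, an apical polarity gene, *Podxl*, whose sialomucin coats free surfaces, and *Ezr*, whose product ties actin to the apical membrane, with log2 folds of 2.60, 2.12, 2.52 and 2.19, or 4.60, 3.63, 4.12 and 3.09 against the *Upk3b*-free set. The 7 lower were *Cdh1*, *Cldn3*, *Cldn4*, *Cldn6*, *Cldn7*, *Crb3* and *Spint1*, which the pancreatic epithelium also expresses. Against the *Epcam*-free set 21 of 33 genes of this list were higher and none lower. There *Cldn3*, *Cldn6*, *Cldn7* and *Spint1* were tested and not called, and *Cdh1*, *Cldn4* and *Crb3* were too low to be tested. Of 11 pancreatic epithelial markers 11 were lower and of 10 endocrine markers 9 were lower, and their summed levels were 30.7 to 1202 and 239 to 1339 CPM in members against 133 to 9247 and 158 to 14639 CPM in other mesenchyme. Of the 7 epithelial markers that could be tested against the *Epcam*-free set *Cpa1* was lower, and of 8 endocrine markers none was lower and *Isl1* was higher. The remaining markers of both lists were too low for that test. Keratins and plakins were higher for 3 of 11, *Krt14*, *Krt15* and *Evpl*, and none was lower. Of 10 tested against the *Epcam*-free set 9 were higher, with *Krt8*, *Krt18*, *Dsp*, *Dsg2*, *Dsc2* and *Pkp2* added.

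Basement membrane genes split by chain. Of 23, 10 were higher, among them *Npnt* (nephronectin, 86.8 to 286 CPM in members against 8.34 to 82.6 CPM), *Egfl6*, *Fras1*, *Frem2*, *Fbln2*, *Lama5*, *Col4a5* and *Col4a6*, and 4 were lower, *Col4a1*, *Col4a2*, *Lama4* and *Frem1*. The common type IV collagen gene *Col4a1* was at 0 to 14.0 CPM in members and 17.4 to 185 CPM in other mesenchyme, with no overlap between the groups (log2 fold -3.23 ± 0.23, adjusted p = 8.3e-06, or -3.83 against the *Upk3b*-free set), whereas *Col4a5*, which encodes a chain of another type IV network, was at 13.6 to 52.4 CPM in members and higher there in all 8 libraries (1.41 ± 0.24, or 2.13). Of 16 genes of caveolae and water transport, 7 were higher, with *Aqp1* and *Aqp5*, the water channel genes, at log2 folds of 1.76 and 2.50, or 2.78 and 3.69 against the *Upk3b*-free set. *Atp1b1* was lower, but not against the *Epcam*-free set (-0.34, adjusted p = 0.34).

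Members differed from other mesenchyme in several groups of secreted factors. Of 21 growth factor ligand genes 5 were higher, *Fgf9*, *Fgf18*, *Pdgfc*, *Pdgfd* and *Gas6*, and 5 were lower, including *Ntf3*, *Ptn*, *Vegfa* and *Vegfc*. *Fgf18*, which encodes a ligand of mesenchymal FGF receptors, was at 4.87 to 31.5 CPM in members and higher in 7 of 8 libraries, all but E17.5 v1 (log2 fold 1.34 ± 0.29, adjusted p = 0.0057, or 1.67 against the *Upk3b*-free set). *Gas6*, the ligand of AXL-family receptors, was at 29.0 to 610 CPM against 15.4 to 330 CPM, and higher in all 8 (1.25 ± 0.14, or 1.77). Of 17 BMP and TGF-beta genes, *Bmp4*, *Bmp2*, *Fst* and *Tgfb3* were higher and *Tgfb1*, *Gdf10* and *Gdf11* lower. *Bmp4* was steady at 68.6 to 132 CPM in members and did not overlap the 14.8 to 59.7 CPM of other mesenchyme (1.73 ± 0.19, adjusted p = 0.00012, or 2.30). Of 18 Wnt pathway genes, *Rspo1*, *Wnt9a*, *Wnt2b* and *Wnt6* were higher and *Dkk2* and *Notum*, both of which encode Wnt antagonists, lower. *Wnt6* was tested but not called against either other set. *Wnt2b* was too low to be tested against either, and *Notum* against the *Epcam*-free one. *Igfbp2*, *Igfbp5* and *Igfbp6* were the IGF-binding protein genes that were higher, of 6 tested, with none lower.

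Receptor and Notch genes went the other way. Of 15 genes for FGF, PDGF and related receptors and their feedback targets, 8 were lower, *Pdgfra*, *Pdgfrb*, *Fgfr2*, *Kit*, *Spry1*, *Spry4*, *Dusp6* and *Etv5*, and 1, *Kdr*, was higher. *Fgfr2* and *Etv5* were too low to be tested against the *Epcam*-free set. *Pdgfrb* was at 0 to 7.56 CPM in members and 15.3 to 83.8 CPM in other mesenchyme, with no overlap (log2 fold -3.10 ± 0.21, adjusted p = 5.8e-06, or -3.76 against the *Upk3b*-free set). *Pdgfra*, the gene of the depleted marker, was at 0.485 to 14.0 CPM in members, against 35.4 to 61.8 CPM in other mesenchyme of the v1 and Fev-Cre libraries and 2.14 to 4.26 CPM in that of the depleted ones. Of 11 Notch genes 7 were lower (*Notch1*, *Notch3*, *Jag1*, *Hes1*, *Hey2*, *Heyl* and *Nrarp*) and 0 higher, with a list median of -1.53, and of 7 hedgehog pathway genes none was called, although *Cdon* was called higher against both the *Upk3b*-free and the *Epcam*-free set (log2 folds of 1.32 and 1.1). *Hes1*, the common target gene of the pathway, was at 14.0 to 62.5 CPM in members and 106 to 697 CPM in other mesenchyme (-2.90 ± 0.21, adjusted p = 1.0e-05, or -3.13), and *Hey2* was too low to be tested against the *Epcam*-free set.

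**Figure D2:**
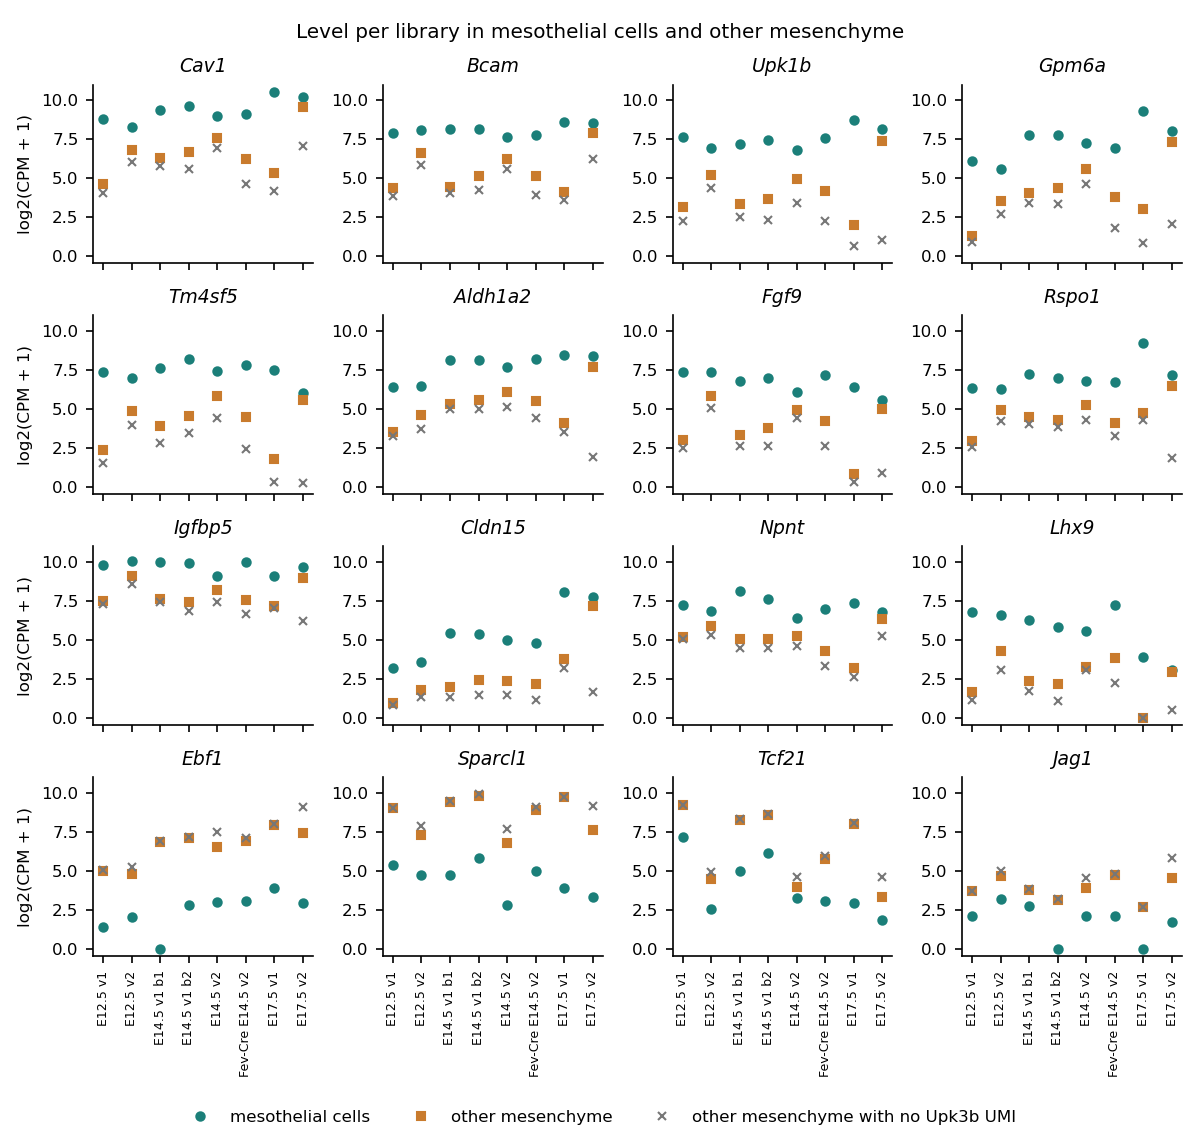
Level of 16 genes per library, as log2(CPM + 1) of the summed UMIs, in mesothelial cells (green circles), other mesenchyme (orange squares) and other mesenchyme with no *Upk3b* UMI (grey crosses). In the first 12 panels members lie at or above other mesenchyme in every library, the 2 being nearest in E17.5 v2, where the crosses lie lower, and in the last 4 (*Ebf1*, *Sparcl1*, *Tcf21*, *Jag1*) members lie below.

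Among called genes of at least 50 CPM, only those lower in members of all 8 libraries were ranked by fold. The lowest were *Aspn*, *Ebf1*, *Ntrk2*, *Rgs5*, *Sparcl1*, *Prrx1*, *Ctsk* and *Osr2*, with log2 folds of -4.48 to -3.64 (-5.23 to -4.11 against the *Upk3b*-free set). *Prrx1*, a limb and fibroblast homeobox gene, was at 0 to 10.2 CPM in members and 36.0 to 177 CPM in other mesenchyme. *Rgs5*, a pericyte gene, was at 1.45 to 7.01 against 18.1 to 146 CPM, and *Sparcl1*, which encodes a matrix glycoprotein, at 6.30 to 55.5 against 112 to 905 CPM. Of 14 smooth muscle genes 6 were lower and none higher, and of 28 fibrillar collagen and stromal matrix genes 7 were lower (*Lum* by 3.44 on the log2 scale) and *Efemp1* was higher. Of 14 genes of epithelial-mesenchymal transition the repressor genes *Snai1*, *Snai2*, *Zeb1*, *Zeb2* and *Twist2* were lower and *Sulf1* and *Itga3* higher. The cell cycle list held no call among 30 genes, at a list median of -0.18.

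Transcription factor genes told members apart in both directions. Of 31 mesothelial and coelomic factor genes, 9 were higher and 7 lower. *Lhx9*, a LIM homeobox gene of the coelomic lining (chr1:138825186-138848577), stood at 111 and 98.2 CPM in members at E12.5, 48.0 to 77.3 CPM in the Swiss Webster libraries of E14.5, 149 CPM in Fev-Cre and 14.0 and 7.54 CPM at E17.5, against 0 to 18.8 CPM in other mesenchyme (log2 fold 3.04 ± 0.48, or 4.76 against the *Upk3b*-free set). *Bnc1*, *Foxf1*, *Nr2f1*, *Gata4*, *Gata6*, *Klf5*, *Cebpb* and *Tbx18* were the others that were higher. *Tcf21*, which marks embryonic fibroblast progenitors, was lower in members of all 8 libraries (-2.32 ± 0.23), and so were *Osr2*, *Tbx2*, *Tbx3*, *Sox9*, *Hoxb5* and *Klf2* in the fit. *Klf2* was not called against the *Upk3b*-free set and *Sox9* not against the *Epcam*-free one, and *Tbx18* was too low to be tested against either.

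Homeobox genes of neighbouring organs were found in mesothelial cells. Among the 9 such genes tested *Hlx* was higher and *Nkx2-3*, *Nkx2-5*, *Tlx1*, *Msx1* and *Pdx1* were lower, *Tlx1* and *Pdx1* being too low for a test against the *Epcam*-free set. *Tlx1*, a gene of the spleen anlage, was at 0 to 5.11 CPM in members against 0.559 to 34.4 CPM. *Barx1*, the stomach mesenchyme gene (chr13:48662998-48666507), was higher in members of all 8 libraries but by just under 2-fold (log2 fold 0.99 ± 0.13, adjusted p = 0.00027, or 1.28 against the *Upk3b*-free set, where it was called). With every cell thinned to 2000 UMIs, *Barx1* was found in 38.4%, 37.2%, 45.3%, 50.5%, 33.7% and 38.2% of members from E12.5 v1 to Fev-Cre, in 30.6% in E17.5 v1 and in 12.6% in E17.5 v2. It was found in 9.36% to 31.1% of other mesenchyme and in at most 1.52% of epithelial cells, a class that should lack it and that had median depths of 3990.5 to 12209.5 UMIs. Unthinned, *Barx1* was found in 50.5% to 83.7% of members.

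**Figure D3:**
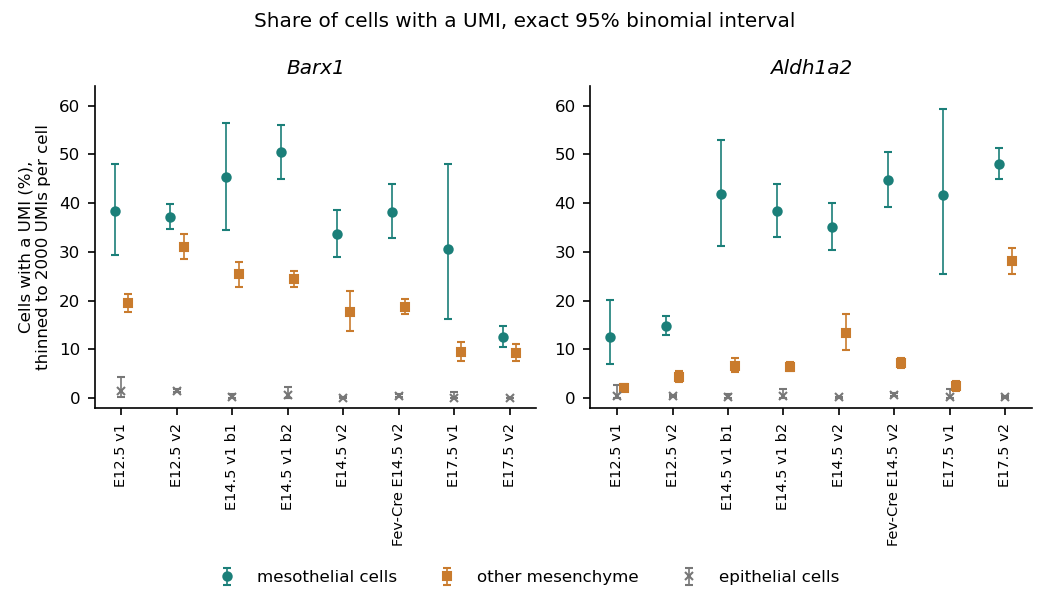
Percent of cells with at least 1 UMI of *Barx1* and *Aldh1a2* per library after thinning to 2000 UMIs per cell, in mesothelial cells (green), other mesenchyme (orange) and epithelial cells (grey), with exact 95% binomial intervals. In members *Barx1* lies between 12.6% in E17.5 v2 and 50.5% in E14.5 v1 batch 2, and *Aldh1a2* goes from 14.9% in E12.5 v2 to 48.1% in E17.5 v2.

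Retinoic acid and prostaglandin genes were among the metabolic genes that set members apart. *Aldh1a2*, which encodes the main retinoic acid-making enzyme of embryonic mesenchyme, was at 85.2 and 90.04 CPM at E12.5, 206 to 295 CPM in the 4 E14.5 libraries and 358 and 343 CPM at E17.5. Other mesenchyme was at 10.7 to 66.8 CPM in 7 libraries and 211 CPM in E17.5 v2, and the log2 fold was 2.34 ± 0.29 (adjusted p = 0.00024), or 3.65 against the *Upk3b*-free set. *Rarres1*, *Dhrs3* and *Dhrs7* were higher as well and *Rbp4* was lower, of 15 in the list, although *Rbp4* was not called against the *Epcam*-free set (0.06, adjusted p = 0.96). Of 25 complement, interferon and barrier genes 6 were higher, *Lgals7*, *Lgals3*, *Cd200*, *Tapbp*, *C2* and *Il33*, and *Lyz2* was lower. Among 10 prostaglandin genes *Ptgds*, which encodes prostaglandin D synthase, and *Ptgs1* (COX1) were higher and *Ptges* lower. Of 18 kallikrein and serine protease inhibitor genes, 6 were higher, including *Klk8*, *Klk10*, *Klk13* and *Klk14* of 1 cluster of neighbouring genes, whose reads may be shared between near relatives. *Spint1* was lower, but not against the *Epcam*-free set, and *Serpine2*, which encodes a protease inhibitor of the cell surface, was at 10.2 to 35.8 CPM in members and 58.1 to 516 CPM in other mesenchyme, with no overlap (log2 fold -3.13 ± 0.28, adjusted p = 2.4e-05). *Klk13* (chr7:43712567-43727534) had a log2 fold of 2.69 ± 0.42 and *Klk8* (chr7:43797577-43803826) of 1.59 ± 0.18, or 3.86 and 1.88 against the *Upk3b*-free set.

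The second question was how these cells changed with stage. Members of the 7 Swiss Webster libraries were fitted together with kit as a term, which left 3 residual degrees of freedom, and the 3 contrasts share libraries. From E12.5 to E17.5, 1184 of 11060 genes (10.7%) rose and 723 (6.54%) fell. From E12.5 to E14.5, 351 (3.17%) rose and 99 (0.895%) fell, and from E14.5 to E17.5, 546 (4.94%) rose and 404 (3.65%) fell. These counts changed when single libraries were left out, which also leaves fewer degrees of freedom. What caused the changes was not tested. The count of 1907 for E12.5 to E17.5 was 531 without E12.5 v2 and 277 without E17.5 v2. That of 450 for E12.5 to E14.5 was 66 without E12.5 v2, 158 without E14.5 v2 and 290 without E17.5 v2, and that of 950 for E14.5 to E17.5 was 622 without E14.5 v1 batch 2, 264 without E14.5 v2, 531 without E17.5 v1 and 78 without E17.5 v2.

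Genes of complement, interferon response and surface defence were the list with most calls. From E12.5 to E17.5, 26 of 29 rose and 1, *Ifitm1*, fell, and the list median was 3.9 against -0.14 over all genes. *Bst2* (tetherin, which holds budding viruses at the membrane) was at 5.11 and 11.3 CPM at E12.5 and 1571 and 1683 CPM at E17.5, a log2 change of 7.62 ± 0.67 (adjusted p = 3.6e-09). At E14.5 it was split, with 228 and 200 CPM in v1 batch 2 and v2 but 22.9 and 19.2 CPM in v1 batch 1 and Fev-Cre. *Lgals3* (galectin 3) went from 13.6 and 8.69 to 337 and 534 CPM, *Lgals7* from 3.41 and 4.50 to 309 and 400 CPM, and *Ifitm3* from 118 and 85.0 to 1242 and 1332 CPM. The proteasome and antigen presentation genes *Psmb8*, *Psmb9*, *B2m*, *H2-D1*, *H2-K1* and *Tapbp* all rose. By E14.5, 14 of the 29 had risen and 1 had fallen. The summed level of the list rose in other mesenchyme as well. In v1 it went from 2516 at E12.5 to 8867 CPM at E17.5 in members and from 2141 to 6751 CPM in other mesenchyme. In v2 it went from 1982 to 8840 CPM and from 1787 to 6734 CPM.

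Several defence genes were nearly silent at E12.5. *Slpi*, an antiprotease gene of mucosal surfaces, had 2 UMIs in all members at E12.5 and 3787 at E17.5, and within v2 the level was 1689 times higher at E17.5 (95% counting interval 467 to 13952). *C3*, the central complement gene, had 3 UMIs against 1105 (v2 ratio 328, interval 112 to 1592), and *Thbd*, the anticoagulant thrombomodulin gene, had 2 against 949 (v2 ratio 415, interval 115 to 3433). *Bst1*, which encodes an ectoenzyme related to CD38, had 1 against 471 (410, interval 73.3 to 16238). *Dmkn* (dermokine, an epidermal secreted protein, chr7:30763756-30781063) was at 0 and 0.511 CPM at E12.5, 26.2 to 45.8 CPM in the Swiss Webster libraries of E14.5, 18.5 CPM in Fev-Cre and 912 and 1188 CPM at E17.5, a log2 change of 11.30 ± 0.56. In all these genes both E17.5 libraries lay above every earlier one.

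**Figure D4:**
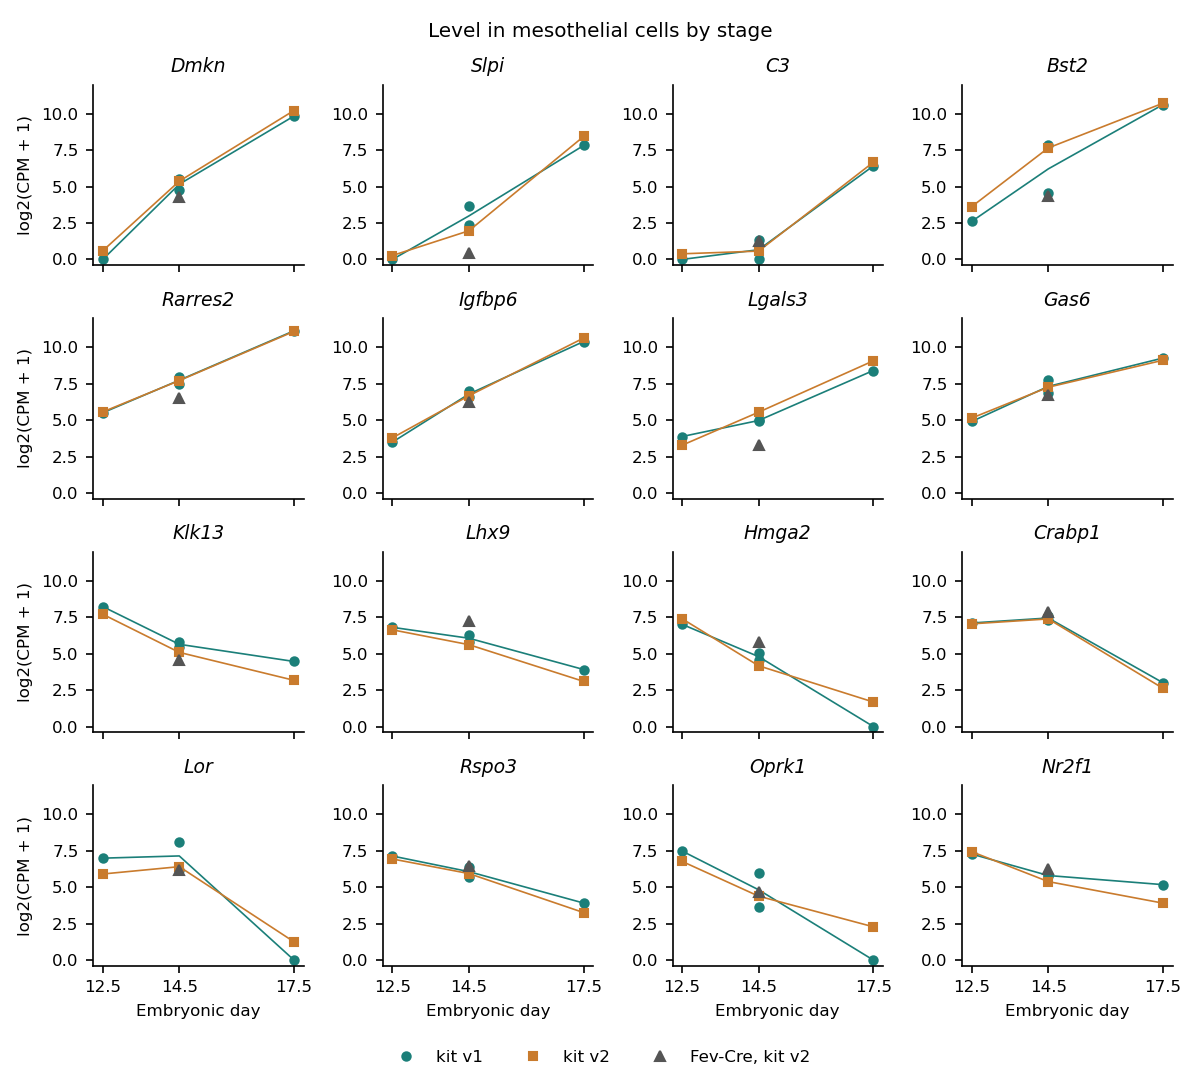
Level of 16 genes in mesothelial cells by embryonic day, as log2(CPM + 1), for v1 libraries (green circles), v2 libraries (orange squares) and Fev-Cre (grey triangles), with lines through the mean of each kit. The upper 8 genes rise and the lower 8 fall from E12.5 to E17.5 in both kits, and *Bst2* at E14.5 spreads from 19.2 to 228 CPM.

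Matrix, caveolar and growth factor-binding genes rose as well. Of 29 fibrillar collagen and stromal matrix genes 23 rose from E12.5 to E17.5 and *Mfap4* fell, with a median of 2.56. The summed level of this list rose in other mesenchyme too. In v1 it went from 4309 to 21500 CPM in members and from 4608 to 22156 CPM in other mesenchyme. In v2 it went from 3921 to 21353 CPM and from 2899 to 17241 CPM. *Dcn* (decorin) was at 661 and 332 CPM at E12.5 and 7057 and 6080 CPM at E17.5 (log2 change 3.87 ± 0.43). Of 15 genes of caveolae and water transport 10 rose and none fell. Among them *Aqp1* went from 13.6 and 16.3 to 154 and 217 CPM. Of 6 IGF-binding protein genes 5 rose, with *Igfbp6* from 10.2 and 12.8 CPM through 94.5 to 127 CPM in the Swiss Webster libraries of E14.5 to 1340 and 1581 CPM (7.05 ± 0.42, adjusted p = 8.9e-12), while *Igfbp5* had a log2 change of -0.37 ± 0.35 (adjusted p = 0.53). *Cldn15* went from 8.52 and 11 to 274 and 222 CPM (4.60 ± 0.35), and of 32 tight junction and apical genes 12 rose and 4 fell. Keratins and plakins rose for 6 of 12, including *Krt8*, *Krt18*, *Krt14* and *Krt15*, and *Dsc2* fell. Of 14 smooth muscle genes 8 rose, with *Acta2* from 34.1 and 15.9 to 253 and 219 CPM, and *Lmod1* fell. Basement membrane genes rose for 10 of 22 and *Fras1* fell. Of 14 mesothelial markers outside the gate 10 rose and none fell. Of 30 cell cycle genes *Rrm2* and *Mcm4* fell from E12.5 to E17.5, and these with *Pcna*, *Ccne1* and *Ccne2* fell from E14.5 to E17.5. In 2000 UMIs per cell, 3 or more of the 30 were found in 48.4% to 62.8% of members at E12.5 and E14.5 and in 16.7% and 28.5% at E17.5, and in other mesenchyme in 44.8% to 68.6% and then 23.1% and 34.4%.

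Secreted signals shifted rather than rising as a group. Of 17 growth factor ligand genes *Gas6*, *Figf*, *Fgf1*, *Fgf2*, *Igf2* and *Kitl* rose and *Fgf9*, *Fgf18*, *Pdgfc*, *Ptn* and *Hbegf* fell. *Gas6* was at 29.0 and 34.2 CPM at E12.5, 115 to 217 CPM in the Swiss Webster libraries of E14.5 and 610 and 549 CPM at E17.5 (4.26 ± 0.37). Of 18 BMP and TGF-beta genes 4 rose and 1 fell, of 13 receptor genes 4 rose, of 10 prostaglandin genes 4 rose, and of 7 hedgehog genes *Cdon* rose. Among 18 Wnt pathway genes 7 rose and 4 fell. The R-spondin genes parted, *Rspo3* going from 140 and 121 to 14.0 and 8.55 CPM (-3.64 ± 0.40) while *Rspo1* rose by 1.98 ± 0.37, more in v1 (81.8 to 603 CPM) than in v2 (77.0 to 146 CPM). Wnt ligand gene *Wnt5a* rose by 2.19 ± 0.42 and the antagonist gene *Sfrp2* by 2.72 ± 0.31. Of 15 retinoic acid genes 6 rose, with *Rarres2* (chemerin) from 44.3 and 46.2 to 2231 and 2168 CPM and *Aldh1a2* by 2.1 ± 0.30, and the binding protein genes *Crabp1* and *Crabp2* fell. *Crabp1* fell late, from 136 and 131 CPM at E12.5 and 154 to 195 CPM in the Swiss Webster libraries of E14.5 to 7.01 and 5.15 CPM at E17.5.

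Several genes fell to near 0 by E17.5. *Hmga2*, which encodes a chromatin protein of embryonic cells, was at 128 and 167 CPM at E12.5, 17 to 31.5 CPM in the Swiss Webster libraries of E14.5 and 0 and 2.21 CPM at E17.5. *Oprk1*, an opioid receptor gene, was at 177 and 108 CPM at E12.5 and 0 and 3.86 CPM at E17.5. *C1ql2* had 649 UMIs at E12.5 and 2 at E17.5 (v2 ratio 327, interval 90.1 to 2705). *Lor*, the cornified envelope gene loricrin, stood at 126 and 58.9 CPM at E12.5 and 70.6 to 278 CPM in the Swiss Webster libraries of E14.5 and then at 0 and 1.38 CPM. The kallikrein gene *Klk13* went from 298 and 207 through 33 to 54.4 CPM in the Swiss Webster libraries of E14.5 to 21.0 and 8.00 CPM (-4.45 ± 0.38), although its fall from E14.5 to E17.5 was not called without E17.5 v2 (adjusted p = 0.64). *Klk8* and *Klk13* were the members of their list of 17 that fell, against 10 that rose. Coelomic factor genes fell for 12 of 31, including *Lhx9* (-3.46 ± 0.39), *Nr2f1*, *Foxf1*, *Meis1* and *Hoxb6*, and rose for 9, of which *Fos*, *Jun*, *Egr1*, *Atf3*, *Klf2* and *Klf4* are immediate-early or stress genes. *Fos* went from 46.0 and 101 to 3227 and 1586 CPM. The enzyme dissociation was longer at later stages, and stage and dissociation cannot be told apart. The fall of *Barx1* (-1.01 ± 0.35, adjusted p = 0.042) missed the threshold without E12.5 v2, E14.5 v1 batch 2 or E17.5 v2 (adjusted p = 0.59, 0.063 and 0.84). The fall of *Fgf9* from E12.5 to E17.5 was likewise not called without E12.5 v2 or without E17.5 v2 (0.30 and 0.37), nor that of *Pdgfc* without either E17.5 library (0.077 for v1 and 0.12 for v2).

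Some calls over time lay in genes of other cells. *Ins2*, *Ctrb1* and *Pnliprp1* rose in members from E12.5 to E14.5, but *Ins2* in members was 0 to 679 CPM against 0.227 to 8582 CPM in other mesenchyme, and *Ctrb1* 0 to 1053 against 2.38 to 3760 CPM, both higher in other mesenchyme of all 8 libraries. Against the *Epcam*-free set *Ins2* differed by -0.24 on the log2 scale (adjusted p = 0.48). *Serpina6*, an acinar gene that fell from E14.5 to E17.5, was no longer called without E14.5 v2 (adjusted p = 0.11), E17.5 v1 (0.13) or E17.5 v2 (0.64), and the rises of *Ctrb1* and *Pnliprp1* were not called without E12.5 v2 (0.16 and 0.13). *Itm2a* was at 1959 CPM in E14.5 v1 batch 1 and 1209 CPM in Fev-Cre but 57.5 and 30.1 CPM in the other E14.5 libraries, and *Gm8797*, a gene model nearly identical to a ubiquitin gene, whose reads may be shared, at 7512 CPM in batch 1 and 776 CPM in E14.5 v2 against 27.7 CPM in batch 2. Neither of these calls from E14.5 to E17.5 held without E17.5 v1 (0.22 and 0.37) or without E17.5 v2 (0.37 and 0.47). Haemoglobin genes made up 0.486% to 4.13% of member UMIs in the Swiss Webster libraries and 0.00262% in Fev-Cre, and 3 embryonic globin genes fell with stage while 4 erythroid genes rose. All 4 neural crest and glia markers tested, *Elavl4*, *Fabp7*, *Tubb3* and *Ednrb*, fell from E12.5 to E17.5 with a median log2 change of -3.31, each from at most 10.2 CPM at E12.5. Neural crest markers summed to 0 to 40.0 CPM in members, immune markers to 6.82 to 179 CPM and endothelial markers to 130 to 222 CPM. Against other mesenchyme 3 of 5 neural crest, 3 of 9 immune, 2 of 6 endothelial and 0 of 8 erythroid markers were lower, and 0, 0, 2 and 0 were higher. Of the lower ones *C1qa* was not called against the *Epcam*-free set and *Tubb3* was too low to be tested. The part of these other cells' RNA in the stage calls was not tested.

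Whether a stage change was particular to mesothelial cells was tested as the interaction of class and stage from E12.5 to E17.5. Of 13197 genes 1 (0.00758%) was called, *Postn* (periostin, a fibroblast matrix protein), and DESeq2 called 7. An unadjusted p below 0.05 was found for 556 genes, fewer than the 0.05 share of all genes that no difference at all would give. The fit left 4 residual degrees of freedom, and few calls do not show that both classes changed alike. Cells that met the gate but for *Epcam* were 62.3% of other mesenchyme in E17.5 v2 and 0.876% in E17.5 v1. Their part in the count was not tested. *Postn* was at 47.7 and 15.4 CPM in members at E12.5 and 35.1 and 5.79 CPM at E17.5, and in other mesenchyme at 26.9 and 13.5 and then 668 and 174 CPM, so that the change in members was lower by 5.23 ± 0.56 on the log2 scale (adjusted p = 0.028). No gene was called without E12.5 v1 or without E14.5 v1 batch 2. The count was 4 without E12.5 v2, 6 without E14.5 v2, 5 without E17.5 v1 and 3 without E17.5 v2.

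With the *Upk3b*-free set for comparison, 129 genes (0.978%) had a larger rise or smaller fall in members and 173 (1.31%) the opposite, of 13184. Of 31 defence genes *Slpi*, *Lgals7*, *Bst2*, *Thbd*, *Tapbp* and *H2-D1* had the larger rise in members, and *Ifitm1* the opposite. *Bst2* was at 49.2 and 65.2 CPM in these comparison cells at E17.5, against 1571 and 1683 CPM in members, and its difference in change was 5.07 (adjusted p = 0.0034). *Rspo1*, *Wnt5a* and *Sfrp2* of the Wnt list, *Aldh1a2*, *Rarres2* and *Rbp4* of the retinoic acid list, *Gas6*, *Igfbp2*, *Cldn15*, *Upk1b*, *Egfl6* and *Krt15* also had larger rises in members, and *Barx1* did, having fallen further in the comparison cells. In the opposite direction lay 7 of 16 smooth muscle genes, including *Tagln*, *Myl9* and *Actg2*, the Notch genes *Notch3*, *Heyl* and *Hes1*, the matrix genes *Postn*, *Lum*, *Mfap4* and *Col12a1*, as well as *Foxf1* and *Rspo3*. No gene of the 30 in the cell cycle list was called. This set was defined with the values in view, by a gate gene with more UMIs per member at E17.5. In v2 it kept 828 of 1246 cells at E12.5 and 411 of 1133 at E17.5. In v1 it kept 1749 of 1795 and 1128 of 1141. The selection itself can thus add to these differences, and how much was not tested.

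With the *Epcam*-free set, 185 genes (1.45%) had a larger rise or smaller fall in members and 216 (1.7%) the opposite, of 12735. *Bst2*, *Slpi*, *Lgals7*, *Thbd*, *Tapbp* and *H2-D1* were again among those with the larger rise, with *Lgals3* and *Lyz2* added, and the difference in change of *Bst2* was 4.35 (adjusted p = 0.0017). In the opposite direction were *Postn* (-6.42, adjusted p = 0.00012), 5 of 16 smooth muscle genes and 5 of 12 Notch genes, *Hes1*, *Heyl*, *Jag1*, *Notch1* and *Notch3*. *Upk1b*, *Igfbp2* and *Foxf1* were not called against this set (adjusted p = 0.059, 0.082 and 0.070), and no cell cycle gene was. *Epcam* is a gate gene too. In v2 the *Epcam*-free set left out 45.3% of other mesenchyme at E12.5 and 67.8% at E17.5. In v1 it left out 2.67% and 2.98%. This selection can also add to the differences, and how much was not tested. The number of genes called thus depended on the comparison cells, and single libraries were not left out in the fits against either set.

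The Fev-Cre library gave a further look at E14.5. In it 51 of 319 members (16.0%, interval 12.1% to 20.5%) held an *eGFP* UMI and 32 (10.0%, 6.96% to 13.9%) a *tdTomato* UMI. The shares were 19.0% and 10.2% in other mesenchyme and 64% and 8.80% in epithelial cells, at median depths of 8357, 6276 and 9360 UMIs. At least 3 *eGFP* UMIs were held by 6 members, 122 cells of other mesenchyme and 1819 epithelial cells, and *eGFP* stood at 36.7, 104 and 701 CPM in the 3 classes. Among genes picked after their values had been seen, and compared with the 3 Swiss Webster libraries of the same stage, members of this library had the lowest *Rarres1* (15.7 against 153 to 226 CPM), *Lgals3* (8.75 against 29.2 to 45.6 CPM) and *Slpi* (0.350 against 2.91 to 11.5 CPM), and the highest *Lhx9* (149 against 48.0 to 77.3 CPM) and *Hmga2* (55.3 against 17 to 31.5 CPM). Strain, sort and day differ between these libraries and cannot be told apart, and with 1 Fev-Cre library the difference was not tested.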

How the data were processed

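The authors deposited UMI counts per gene and cell barcode, made per the labels with Cell Ranger 1.1 or 2.1 on mm10. Per the study's methods v1 libraries used the earlier version. Of 10 samples, 9 matrices were used. The Fev-Cre matrix without reporter genes repeats the same library and was left out. The 27703 genes shared by all matrices, without mitochondrial genes, were kept. Member counts were summed per library, from 142556 UMIs in E17.5 v1 (1 UMI is about 7 CPM) to 10876238 in E17.5 v2. Sums were tested with edgeR 4.0.16 in R 4.3.3 (glmQLFit, TMM, filterByExpr, two-sided), with the 9 gate and collagen genes left out, after the fits had been tested on simulated data. DESeq2 1.42.0 was an alternative. Both classes of a library came from 1 suspension and were paired by it. Named genes are the 8 with the largest fold per direction at 50 CPM or more that moved alike in every library or in both kits, list genes and genes the study names. Some further list genes were named for their levels. Members, the 29 lists and tests were chosen with earlier results of these data known. Some genes of the lists are not reported here. No doublet caller was run. Gene positions are from GENCODE M21. Figures used Python 3.11.15 and matplotlib 3.10.9.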

Additional observations from a re-analysis of the deposited data

Results flagged for a closer look

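Among the 16 genes named for the class comparison, the log2 ratio of members to other mesenchyme for *Ebf1* in E14.5 v1 batch 1 was -6.88, with a median of -3.94 over the 8 libraries. Its gap to the next library was 0.571 of the whole range, above Dixon's limit for that number of libraries. Members of that library held no *Ebf1* UMI, so the ratio rests on the 1 CPM added before the log, and chance alone exceeds this limit in about 1 of 20 such groups.

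The stage change of *Postn* differed between members and other mesenchyme by -5.23 (SE 0.563, adjusted p = 0.0283 by edgeR's quasi-likelihood test), and by -6.54 against other mesenchyme with no *Upk3b* UMI.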

How the results depend on the processing

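None of the single-gene results changed direction under the alternatives in which the gene could be tested. These were called genes that the study names or that were named by rule, having moved alike in every library or in both kits. Their direction was thus partly fixed in advance. Of all genes called lower in members, 14 changed sign against other mesenchyme with no *Epcam* UMI. For members against other mesenchyme, 1034 genes were called. The v1 libraries alone gave 746 higher and 591 lower, and the v2 libraries alone, Fev-Cre included, 271 higher and 629 lower. The number called higher thus differed between the kits. The count of all calls was 597 with the gate applied to cells thinned to 2000 UMIs and 354 without cells holding markers of 5 other types. It was 1939 with no filter on low counts (653 higher and 1286 lower) and 538 with no replicate block of library. For E17.5 against E12.5 (1907), the count was 559 without such cells and 1024 with no kit term. For E14.5 against E12.5 (450), it was 251 after thinning, 193 without such cells, 98 with no kit term and 237 with Fev-Cre added. For E17.5 against E14.5 (950), it was 631, 200, 606 with DESeq2 and 337 with no kit term. Batch as a replicate block in place of kit, which puts the 3 v2 libraries, made on different days, into 1 batch, gave 2235, 642 and 1279. The interaction (1) gave 0 with *Upk3b* of at least 1 UMI, 15 after thinning, 68 without cells of 5 types, 7 with DESeq2, 65 with no low-count filter, 401 against other mesenchyme with no *Epcam* UMI and 2 with Fev-Cre added. The alternatives chosen after seeing the data gave 302 (no *Upk3b* UMI in other mesenchyme) and 4 (cells with markers of 3 types left out). Leaving out 1 library at a time gave 873 to 1231, 277 to 2105, 66 to 574, 78 to 1184 and 0 to 6, with 531 and 277 for the second without E12.5 v2 and E17.5 v2, 66, 158 and 290 for the third without E12.5 v2, E14.5 v2 and E17.5 v2, and 622, 264, 531 and 78 for the fourth without E14.5 v1 batch 2, E14.5 v2, E17.5 v1 and E17.5 v2. The cause of these shifts was not tested. Of the single-gene results, on genes picked in part for large folds, 1995 kept direction and side of the threshold and 109 missed it. The median share of members over the 8 libraries was 4.23%, and under the alternatives this median ran from 2.01% to 5.50%. The highest was without cells holding markers of 5 other types, which also makes the total smaller. Of single shares per library 33 moved outside their interval and 31 did not. Leaving out a library in the stage fits leaves the lone library of a kit and stage assumed to vary like the others. At E17.5 v1, with 37 members, a gene at 0 UMIs is limited to about 3 UMIs.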
